A study of Mus musculus with 16 samples.

Results

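The cell-surface receptors of Wnt signalling were followed through the cells of the injured mouse colon: the Frizzled genes Fzd1, Fzd2, Fzd4, Fzd5, Fzd6, Fzd7 and Fzd8 and the co-receptor genes Lrp5 and Lrp6. These 9 genes were chosen by name, and 9 of 9 were found among the 16039 genes of the deposited table. Single-cell RNA-seq libraries came from 16 mice (female C57Bl/6J, 7 weeks old), with transverse colon as the tissue and each mouse as 1 library and 1 replicate. Epithelial cells shaken off the tissue and cells digested from the remaining lamina propria were sorted and combined, so that shares of cell types also carry the dissociation and the sort. Uninjured mice (2 collected on day 5 and 2 on day 6) were compared with mice given 4% dextran sulfate sodium (DSS) in their drinking water throughout, which injures the colon epithelium. On day 4 an injection of 10 mg/kg followed, of either SZN-1326-p or, as control, an anti-GFP antibody, and 3 mice per agent were collected 24 h later (day 5) and 3 more 48 h later (day 6). Both DSS arms thus share the injury and an injected protein, while the labels give no injection for the uninjured mice.

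Wnt ligands bring a Frizzled receptor, a multi-pass membrane protein with a cysteine-rich ligand-binding domain, together with LRP5 or LRP6, single-pass co-receptors. The resulting complex recruits Dishevelled and Axin and spares beta-catenin from degradation, and beta-catenin with TCF factors then switches on targets such as Axin2. In the intestine this signal maintains the stem cells at the crypt base, and membrane-bound ligases encoded by Rnf43 and Znrf3 remove Frizzled from the surface. SZN-1326-p is an engineered Wnt mimetic described as pairing FZD5 and FZD8 with LRP6, so 3 of the 9 genes encode its binding partners. Every value below is a transcript level, which says nothing of the receptor protein at the surface.

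The libraries held 936 to 2033 cells and 9616512 to 21335421 UMIs (unique molecular identifiers, here counted transcripts) each, in 46 cell types of the authors' annotation, which were gathered into classes such as epithelial or fibroblast cells. Each marker listed for epithelial, fibroblast, endothelial, mural, T lymphoid, B or plasma, glial and myeloid cells was highest in its own class, and Olfm4, listed for stem cells, was highest in myeloid cells. In 4 libraries, all collected at 24 h (mouse 1 of each arm and anti-GFP mouse 2), long transcripts took a larger part of the UMIs than in the other 12 mice in epithelial, fibroblast, mural or muscle, endothelial and myeloid cells, though not in T lymphoid or B or plasma cells. SZN-1326-p mouse 2 at 24 h and mouse 3 at 48 h had median mitochondrial shares of 18.9% and 24.1%, above those of the other DSS mice. The 4 uninjured libraries had median mitochondrial shares of 19.2% to 26.1% against 5.06% to 11.6% in the 6 anti-GFP libraries, so this share moved with the whole DSS comparison, and its part in the changes after DSS was not tested. A total of 129 cells shared their barcode with a cell of another library, and 23.9% of cells carried UMIs of 2 or more markers of another lineage. Levels are given as normalized UMIs per cell, the UMIs of a gene divided by the size factor of the cell and averaged over the cells of a mouse. They are not scaled by transcript length, so each gene is compared with itself across cells and arms. The 9 genes gave between 710 UMIs (Fzd6) and 20487 UMIs (Lrp6) in all.

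Fzd5 was an epithelial receptor transcript. Its level in epithelial cells was 0.959 ± 0.199 normalized UMIs per cell (SD, n = 16 mice), and 10660 of its 11436 UMIs came from them. T lymphoid cells, the next class with 20 cells in at least 15 mice, held 0.159 ± 0.163 (SD, n = 15), and epithelial cells were higher in 15 of 15 mice (two-sided sign-flip permutation test within mouse, log2 difference 3.53, adjusted p = 0.00014 over the 9 genes). T lymphoid Fzd5 was 0 in 4 of the 15 mice, which widens the mean difference of log2 values. In the 4 mice with at least 50 T lymphoid cells the difference was 1.72 (adjusted p = 0.14, a number of mice too small for this test to pass). The remaining classes lay between 0.0290 and 0.209, without gaps between neighbours beyond their spread. Within the epithelium, by the mean over all cells of a type and without a test, Fzd5 was 1.93 in the immature enterocytes named ImmEntero1, 1.33 in AltEnteroPC, 0.976 in Goblet1, 0.786 in stem cells and 0.393 in BasalGoblet. The hormone-secreting EnteroEnd1 cells held 0.0703, the lowest epithelial value. In T lymphoid cells Fzd5 was at 16.6% of its epithelial level while 5 epithelial markers (Epcam, Krt8, Krt18, Cdh1, Cldn7) were there at 7.17% to 12.1% of theirs. In B or plasma cells these values were 15.8% against 3.75% to 10.1%, and in endothelial cells 12.7% against 2.63% to 4.65%. Myeloid cells had 11.2% against 3.33% to 5.67%, mural cells 6.64% against 1.52% to 2.90% and fibroblasts 5.57% against 1.60% to 2.88%. The part of free epithelial RNA in the low values was not tested.

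Lrp6, the co-receptor transcript, was broader than Fzd5. It reached over 0.5 normalized UMIs per cell in 34 of the 46 cell types and was under 0.05 in 1. For Fzd5 these numbers were 13 and 6. Most types were thus not under 0.05 for Fzd5, but the part of free epithelial RNA in low values was not tested. Epithelial cells (1.18 ± 0.289, SD, n = 16) and fibroblasts (1.03 ± 0.223, SD, n = 16) were not separated (log2 difference 0.19, epithelial higher in 10 of 16 mice, permutation test, adjusted p = 0.16). Myeloid cells averaged 0.712 ± 0.410 (SD, n = 16), a spread that followed the injury, as described below. Unlike Fzd5, Lrp6 had its highest type mean, 2.39, in the cells annotated Enterocyte, with 0.895 in stem cells, over the cells of all arms and without a test. Enterocyte made up 19.6% of uninjured but 0.124% of anti-GFP epithelial cells, so its level cannot be told apart from that of the uninjured arm. Macrophages were also high, at 1.63, whereas the myeloid InjuryMono1, InjuryMono2, dendritic and activated neutrophil types held 0.205 to 0.379. Lrp5, the second co-receptor, followed another order. Among the classes it was highest in endothelial cells (0.477 ± 0.226, SD, n = 16), above epithelial cells (0.325 ± 0.0911) in 14 of 16 mice (log2 difference 0.48, permutation test, adjusted p = 0.014). Among the 46 types, however, Lrp5 was highest in the epithelial BasalGoblet (0.617). Only 2 types were over 0.5, BasalGoblet and the epithelial TA1 cells (0.521). Of the TA1 cells 78.9% came from the 4 libraries rich in long transcripts, so their level cannot be told apart from these libraries. Lrp5 was low in Enterocyte (0.0621), where Lrp6 was highest.

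Fzd1 and Fzd2 marked the mesenchyme. Fzd1 was highest in fibroblasts (2.62 ± 0.681, SD, n = 16), then in glia (1.33 ± 0.177, SD, n = 3), mural or muscle cells (0.833 ± 0.321, SD, n = 16) and, far lower, epithelial cells (0.151 ± 0.0401, SD, n = 16). The gaps between fibroblasts, glia and mural cells each exceeded the larger spread, and fibroblasts were above mural cells in 16 of 16 mice (log2 difference 1.73, permutation test, adjusted p = 9.2e-05). The injury-associated fibroblasts named InjuryCryptFB1 (4.14) and InjuryCryptFB2 (3.86) held more Fzd1 than BaseCryptFB1 (2.19), by means over the cells of all arms and without a test. BaseCryptFB1 made up 58.8% of uninjured and 0% of anti-GFP fibroblasts, and InjuryCryptFB1 0.0986% and 13.4%. The difference between these types thus cannot be told apart from that between the arms. In epithelial cells Fzd1 was at 5.75% of its fibroblast level, against 0.242% to 0.364% for the fibroblast markers. Fzd2 did not separate fibroblasts (0.618 ± 0.189) from mural cells (0.537 ± 0.189, both SD, n = 16; permutation test, adjusted p = 0.064), and it was under 0.05 in 29 of 46 types. Its highest type was MuralLikeFB at 1.34.

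Fzd4, the receptor of Norrin in vessels, and Fzd6, known for planar polarity signalling, had their highest level per cell in the endothelial class. By number of UMIs other classes gave more. Fibroblasts gave 1773 of the 4087 Fzd4 UMIs against 1084 from endothelial cells. Epithelial cells gave 426 of the 710 Fzd6 UMIs against 238. The Fzd4 level was 1.61 ± 0.417 in endothelial cells and 0.556 ± 0.199 in mural cells (both SD, n = 16), with endothelial cells higher in 16 of 16 mice (log2 difference 1.54, permutation test, adjusted p = 9.2e-05). Mural cells and fibroblasts (0.366 ± 0.0999) did not differ beyond their spread. Vascular endothelium held 1.78, lymphatic endothelium 0.847 and pericytes 1.36. Fzd6 had the opposite order by these type means, 0.601 in lymphatic and 0.231 in vascular endothelium, which were not tested. Over all endothelial cells Fzd6 was at 0.331 ± 0.148 against 0.0422 ± 0.0147 in epithelial cells (both SD, n = 16), higher in 16 of 16 mice (log2 difference 2.65, permutation test, adjusted p = 9.2e-05), and 36 of 46 types were under 0.05.

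Fzd7, known as a receptor of intestinal stem cells, and Fzd8, the closest relative of Fzd5, were not highest in the epithelial class as a whole. Fzd7 was 0.196 ± 0.0717 in mural cells and 0.168 ± 0.0408 in fibroblasts, and 0.0611 ± 0.0215 in epithelial cells (all SD, n = 16). The epithelial mean covers all epithelial types and does not give the level of stem cells. In stem and transit-amplifying cells at 48 h, given below, each anti-GFP mouse was above that mean and the SZN-1326-p mice were near it. Mural cells and fibroblasts were not separated for Fzd7 (log2 difference 0.15, permutation test, adjusted p = 0.34). Fzd8 was 0.262 ± 0.0741 in mural cells, 0.226 ± 0.0614 in fibroblasts and 0.127 ± 0.0283 in epithelial cells (all SD, n = 16), and no neighbouring pair in the order of its 9 classes differed beyond the larger spread. Vascular smooth muscle (VascSmMuscle2) held 0.677 and the epithelial EnteroEnd1 cells 0.293, where Fzd5 was at its lowest in the epithelium.

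**Figure D1:**
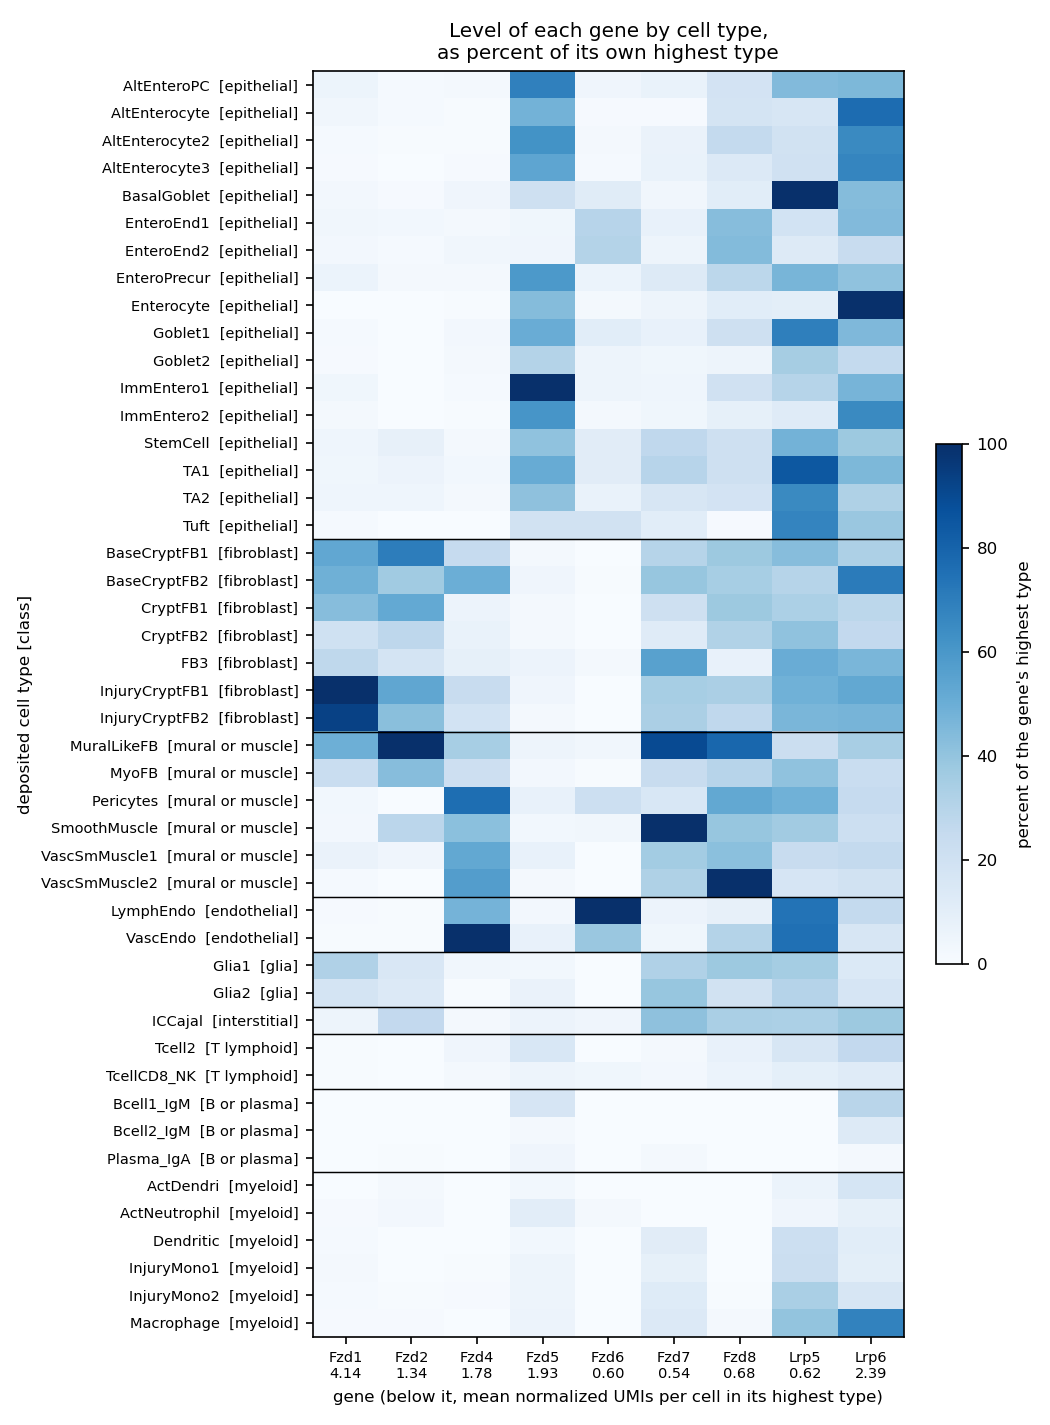
Level of each of the 9 genes in the 46 annotated cell types, grouped by class; colour is the level of a gene relative to its highest type, whose level in normalized UMIs per cell is written under the gene name. Fzd5 is filled in the epithelial rows (highest level 1.93) and Fzd1 and Fzd2 in the fibroblast and mural rows. Fzd4 and Fzd6 have their highest types in the endothelial rows, and Lrp6 exceeds 0.5 normalized UMIs per cell in 34 rows.

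The promoters of Fzd5 and Fzd1 are printed because these receptors carry the epithelial and the mesenchymal results. The 250 bases before the annotated start come from RefSeq (GRCm38.p6, the assembly behind mm10) and run 5′ to 3′ on the strand of the gene. The bases are in lower case, with matches to CTTTGA or CTTTGT, core letters that TCF factors are known to bind, in capitals on either strand. These motifs do not overlap each other. Fzd5 occupies chr1:64730558-64737751 and Fzd1 chr5:4753839-4758035 in the GENCODE vM21 annotation of mm10, both on the minus strand, and each window adjoins the start annotated by RefSeq.
Fzd5 promoter, chr1:64737751-64738000, minus strand: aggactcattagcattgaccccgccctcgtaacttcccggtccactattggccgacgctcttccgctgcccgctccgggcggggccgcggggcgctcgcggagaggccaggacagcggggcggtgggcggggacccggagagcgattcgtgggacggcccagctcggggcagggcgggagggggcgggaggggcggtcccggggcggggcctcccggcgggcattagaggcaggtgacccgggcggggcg
Fzd1 promoter, chr5:4758217-4758466, minus strand: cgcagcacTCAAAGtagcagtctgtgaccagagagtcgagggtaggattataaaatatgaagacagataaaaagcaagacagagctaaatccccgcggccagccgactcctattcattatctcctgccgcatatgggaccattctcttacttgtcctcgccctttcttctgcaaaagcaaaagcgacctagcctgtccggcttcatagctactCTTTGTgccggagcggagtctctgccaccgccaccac
The Fzd5 window is 76.4% G or C, more than 97.0% of the promoters in the table, holds 32 CpG and has no match. The Fzd1 window is 51.2% G or C with 12 CpG and has 1 CTTTGA on the opposite strand, 242 bases from the start, and 1 CTTTGT on the strand of the gene, 37 bases from the start. Of 32851 mouse promoter windows of this length, 13.8% hold CTTTGA and 16.5% hold CTTTGT, so such letters are common. Of the other genes the table held Fzd4 (72.8% G or C, no match) and Fzd7 (65.2% G or C, 1 CTTTGT). A match is a description of letters and not a site of binding.

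The injury itself was read from anti-GFP against uninjured mice, with both collection times in 1 fit. In epithelial cells 8 of the 9 genes passed the filter on low values (Fzd4 did not), and 1 of these, Lrp5, rose, in a comparison that called 23.3% of all genes tested. Lrp5 in uninjured mice was 0.210 and 0.1504 at 24 h and 0.203 and 0.247 at 48 h. In anti-GFP mice Lrp5 was 0.368, 0.453 and 0.391 at 24 h and 0.291, 0.340 and 0.4935 at 48 h. Each anti-GFP mouse was above each uninjured mouse. The rise was 0.91 on the log2 scale (SE 0.15, limma with Benjamini-Hochberg adjustment, adjusted p = 0.00047), from 0.203 ± 0.0397 (SD, n = 4) to 0.389 ± 0.0741 (SD, n = 6). With AltEnteroPC and BasalGoblet, the 2 of 17 epithelial types that every mouse holds, given equal weight and the others left out, the Lrp5 change was 0.57 (limma, adjusted p = 0.079). Mature enterocytes, the type low in Lrp5, made up 19.6% of uninjured epithelial cells and 0.124% after DSS.

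Fzd5, Fzd8 and Lrp6, the binding partners of the drug, gave no called change over all epithelial cells after DSS. Fzd5 changed by 0.18 (95% interval -0.10 to 0.47, limma, adjusted p = 0.34), Fzd8 by 0.40 (0.02 to 0.78, adjusted p = 0.11) and Lrp6 by -0.12 (-0.45 to 0.20, adjusted p = 0.58). The epithelium held other types by then: ImmEntero1, the type highest in Fzd5, went from 9.22% to 0.0807% of epithelial cells, beside the loss of the Enterocyte type, which is highest in Lrp6. Fzd1 was 0.111 ± 0.0197 and 0.157 ± 0.0365 (limma, adjusted p = 0.055), and Fzd2, Fzd6 and Fzd7 had limma adjusted p between 0.19 and 0.82.

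In the progenitors, the stem, TA1 and TA2 cells, 9 of 9 genes passed the filter and 2 rose after DSS, in a comparison that called 10.9% of genes. Progenitor Fzd5 in uninjured mice was 0.602 and 0.597 at 24 h and 0.619 and 0.702 at 48 h. In anti-GFP mice progenitor Fzd5 was 1.64, 1.502 and 1.26 at 24 h and 0.915, 0.967 and 0.811 at 48 h. The groups did not overlap, and the 24 h mice stood above the 48 h mice. The change was 0.85 (SE 0.17, limma, adjusted p = 0.0032). Lrp5 rose from 0.291 ± 0.0358 (SD, n = 4) to 0.574 ± 0.149 (SD, n = 6), by 0.92 (SE 0.20, limma, adjusted p = 0.0062), again without overlap. Progenitor Lrp6 was 0.828 ± 0.151 and 1.07 ± 0.318 (limma, adjusted p = 0.23). Stem cells made up 54.1% of uninjured and 16.1% of anti-GFP progenitors on average. TA1 cells made up 13.0% and 42.4%, with single anti-GFP mice between 4.84% and 95.9%, so the class held different cells from mouse to mouse, and 636 of the 806 TA1 cells (78.9%) came from the 4 libraries rich in long transcripts. Within TA2 cells alone, where 4.78% of genes were called, Fzd5 was 0.643 ± 0.154 in 4 uninjured and 1.06 ± 0.0999 in 4 anti-GFP mice (change 0.80, limma, adjusted p = 0.033). At 24 h only anti-GFP mouse 3 held 20 TA2 cells, and that lone mouse is assumed to vary like the others. Lrp5 in TA2 cells changed by 1.01 (limma, adjusted p = 0.041). By limma the TA2 call of Fzd5 was lost in 7 and that of Lrp5 in 10 of 19 alternatives. Both were lost without uninjured mouse 1 at 24 h or at 48 h, with only the groups compared, without libraries of high mitochondrial share and without cells carrying markers of another lineage, and that of Lrp5 also without uninjured mouse 2 or anti-GFP mouse 2 or 3 at 48 h.

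**Figure D2:**
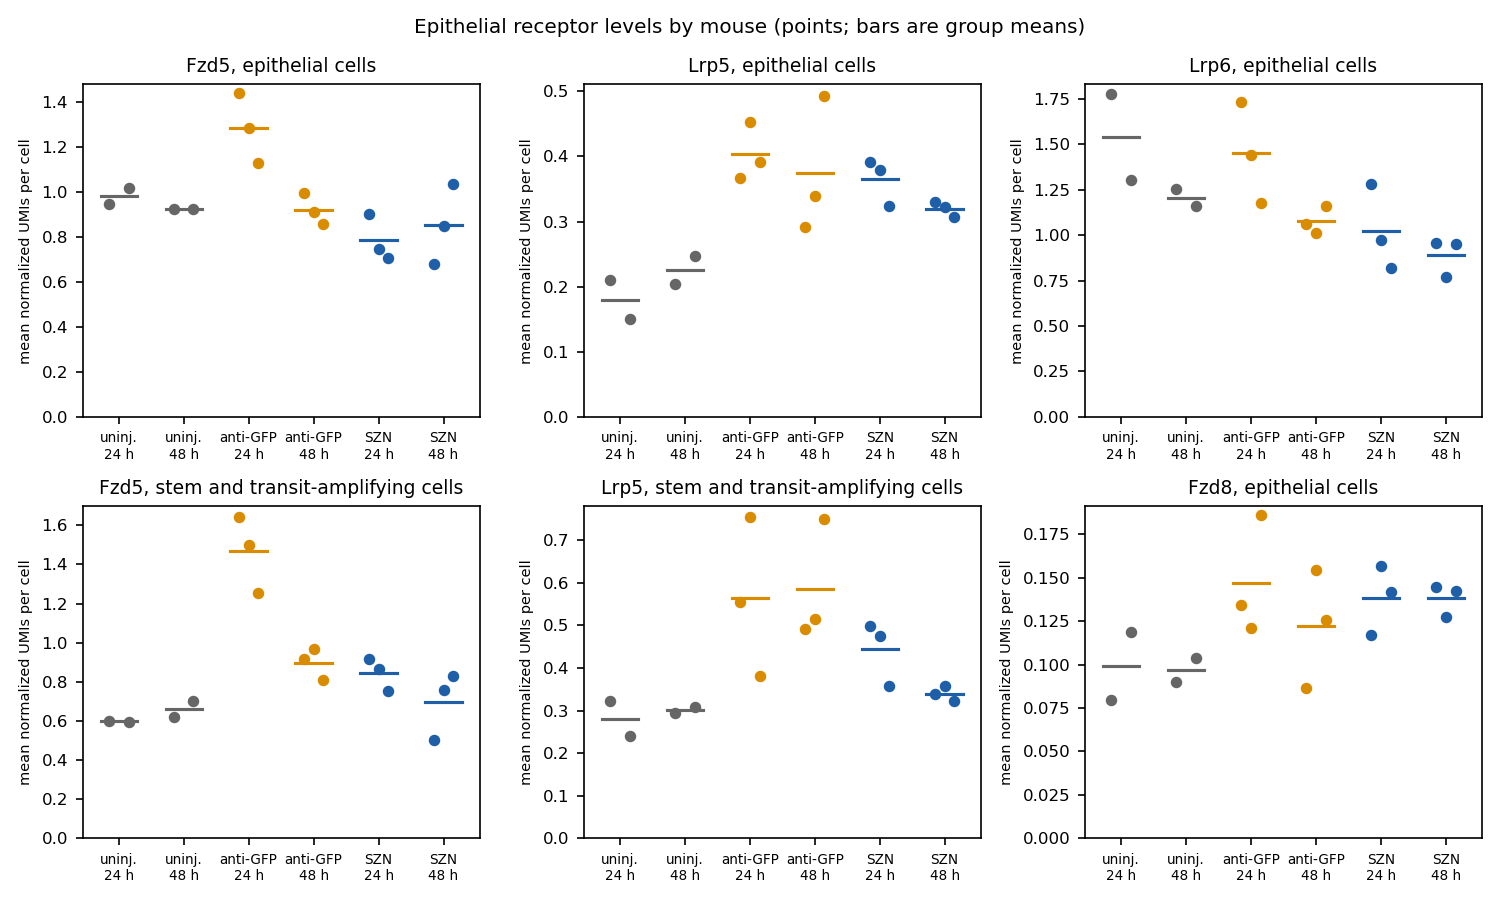
Level of Fzd5, Lrp5, Lrp6 and Fzd8 in epithelial cells and of Fzd5 and Lrp5 in progenitors (stem and transit-amplifying cells) of each mouse, by arm and time, in normalized UMIs per cell; a point is 1 mouse and a bar is the mean of a group. Lrp5 is higher in each anti-GFP mouse than in each uninjured mouse, and Fzd5 at 24 h is lower in the 3 SZN-1326-p mice (0.707 to 0.903) than in the 3 anti-GFP mice (1.13 to 1.44).

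In fibroblasts 3 receptor genes changed with DSS: 8 of 9 genes passed the filter (Fzd6 did not), and after DSS Fzd1 and Lrp6 rose and Fzd2 fell, in a comparison that called 22.3% of genes. Fibroblast Fzd1 in uninjured mice was 1.48 and 1.62 at 24 h and 1.65 and 1.70 at 48 h. In anti-GFP mice fibroblast Fzd1 was 2.94, 3.03 and 3.45 at 24 h and 3.08, 3.56 and 3.47 at 48 h. The lowest anti-GFP value, 2.94, was above the highest uninjured one. The change was 1.01 (SE 0.12, limma, adjusted p = 3.5e-06), and the call was kept in 21 of 21 alternative settings.

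Fzd2 moved the other way in the same cells. Fibroblast Fzd2 in uninjured mice was 0.854 and 0.775 at 24 h and 0.905 and 0.728 at 48 h. In anti-GFP mice fibroblast Fzd2 was 0.498, 0.416 and 0.575 at 24 h and 0.500, 0.311 and 0.562 at 48 h. The groups did not overlap. Fzd2 fell by 0.78 on the log2 scale (SE 0.16, limma, adjusted p = 0.0015), and this call too was kept in 21 of 21 alternative settings. Lrp6 was 0.803 ± 0.198 (SD, n = 4) and 1.16 ± 0.165 (SD, n = 6) with overlapping groups, a rise of 0.55 (SE 0.17, limma, adjusted p = 0.023). By limma the Lrp6 call was lost without cells carrying markers of another lineage (0.48, adjusted p = 0.074) and without uninjured mouse 2 at 24 h (0.43, adjusted p = 0.12), uninjured mouse 1 at 48 h (0.38, adjusted p = 0.18) or anti-GFP mouse 3 at 48 h (0.48, adjusted p = 0.058). Fibroblast Fzd4, Fzd5, Fzd7, Fzd8 and Lrp5 had limma adjusted p between 0.30 and 0.99.

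The fibroblast types themselves changed with DSS. BaseCryptFB1 made up 58.8% of uninjured fibroblasts and 0% in anti-GFP mice, whereas InjuryCryptFB2 went from 2.37% to 31.2% and InjuryCryptFB1 from 0.0986% to 13.4%. Within CryptFB1, a type held by each of the 16 mice, Fzd1 was 0.398, 0.289, 0.845 and 0.565 in the uninjured mice and 2.62, 1.98, 2.46, 3.04, 2.80 and 2.55 in the anti-GFP mice. The lowest anti-GFP value was above the highest uninjured value. The rise within CryptFB1 was 2.37 (SE 0.18, limma, adjusted p = 1.1e-09), in a comparison that called 15% of genes. Within BaseCryptFB2, where 7.56% of genes were called, Fzd1 rose by 1.05 (limma, adjusted p = 0.0029) and Lrp6 by 0.78 (adjusted p = 0.034). Fzd8 there was 0, 0.170, 0.156 and 0.0914 in the uninjured mice and 0.376, 0.246, 0.182, 0.437, 0.311 and 0.465 in the anti-GFP mice, without overlap. The fitted Fzd8 rise of 2.15 (limma, adjusted p = 0.014) is an average of log2 values and is widened by the mouse at 0, uninjured mouse 1 at 24 h. Without that mouse it was 1.11 (limma, adjusted p = 0.11), and by voom 1.21 (adjusted p = 0.14). By limma the BaseCryptFB2 call of Fzd1 was lost without uninjured mouse 1 at 48 h (adjusted p = 0.052), that of Fzd8 also without uninjured mouse 2 at 48 h (adjusted p = 0.066) and that of Lrp6 in 8 of 19 alternatives. Fzd1 thus rose within both fibroblast types tested as well as over the class. Fzd2 was not called within either, with changes of -0.65 in CryptFB1 (limma, adjusted p = 0.10; by voom on UMI sums -0.97, adjusted p = 0.015) and 0.13 in BaseCryptFB2 (adjusted p = 0.86).

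In mural or muscle cells, the pericytes, smooth muscle and myofibroblasts, 8 of 9 genes passed the filter and 2 rose after DSS, in a comparison that called 6.72% of genes. Mural Fzd1 in uninjured mice was 0.315 and 0.197 at 24 h and 0.695 and 0.426 at 48 h, and in anti-GFP mice it was 1.01, 1.20 and 0.650 at 24 h and 1.18, 1.28 and 0.763 at 48 h. The groups overlapped at 1 value, uninjured mouse 1 at 48 h. Mural Fzd1 rose by 1.39 (SE 0.22, limma, adjusted p = 0.00013). Fzd4 was 0.277, 0.410, 0.343 and 0.390 in the uninjured mice, 0.662, 1.07 and 0.881 in anti-GFP mice at 24 h and 0.450, 0.592 and 0.515 at 48 h. The Fzd4 groups did not overlap, and the rise was 0.90 (SE 0.20, limma, adjusted p = 0.0057), which voom on UMI sums did not call (0.71, adjusted p = 0.091). Within the myofibroblasts (MyoFB), where 7.73% of genes were called, Fzd1 was 0.0779 in 1 uninjured mouse at 24 h and 0.752 and 0.168 in 2 at 48 h, and it was 1.37, 1.55, 0.514, 1.42, 1.74 and 0.944 in the 6 anti-GFP mice. The groups overlapped at 1 value, uninjured mouse 1 at 48 h. The fitted MyoFB rise of Fzd1 was 2.71 (limma, adjusted p = 0.00033) and lay between 2.19 and 3.24 on leaving out 1 mouse. The lone uninjured mouse at 24 h, the lowest, has the same weight as both 48 h mice together in that average over times. In the same cells Fzd4 rose by 1.34 (adjusted p = 0.013), a call lost without uninjured mouse 1 at 48 h. Myofibroblasts made up 62.0% of this class in both arms.

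**Figure D3:**
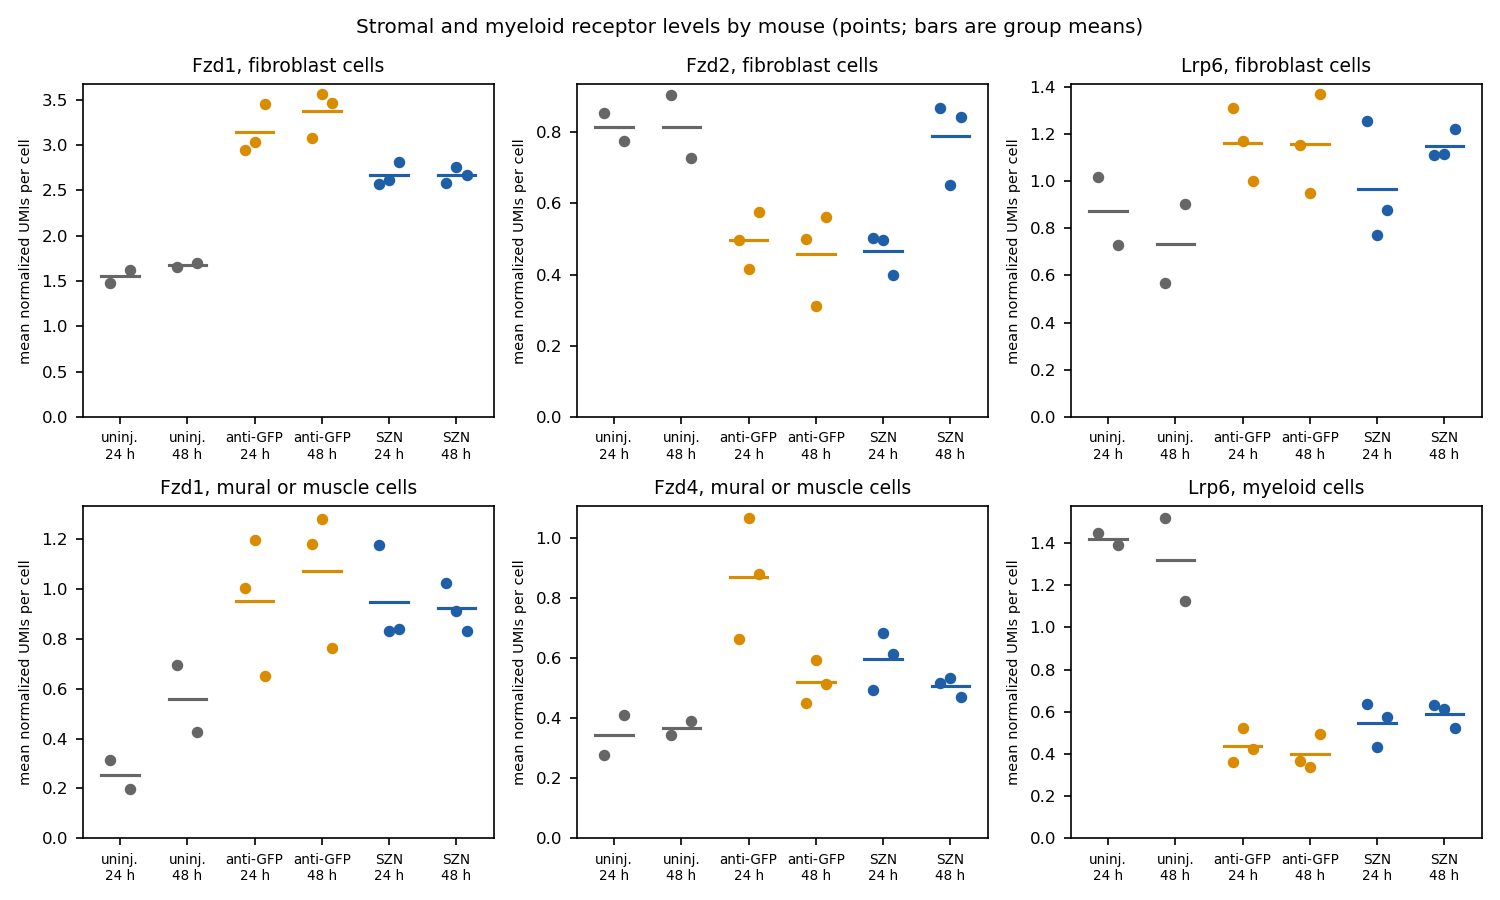
Level of Fzd1, Fzd2 and Lrp6 in fibroblasts, of Fzd1 and Fzd4 in mural or muscle cells and of Lrp6 in myeloid cells of each mouse, by arm and time, in normalized UMIs per cell; a point is 1 mouse and a bar the mean of a group. Fibroblast Fzd1 sits at 1.48 to 1.70 in the uninjured mice and at 2.94 to 3.56 in the anti-GFP mice, and myeloid Lrp6 at 1.13 to 1.52 and 0.339 to 0.521.

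In myeloid cells the Lrp6 level fell with DSS. Of the 5 genes that passed the filter there (Fzd1, Fzd5, Fzd7, Lrp5, Lrp6), 1 fell, in a comparison that called 31.2% of genes. Myeloid Lrp6 was 1.45, 1.39, 1.52 and 1.13 in the uninjured mice, and 0.361, 0.521, 0.425, 0.365, 0.339 and 0.492 in the anti-GFP mice. Each anti-GFP mouse was below each uninjured mouse. The level fell by 1.70 on the log2 scale (SE 0.18, limma, adjusted p = 1.7e-07). Macrophages, the myeloid type high in Lrp6, made up 75.1% of uninjured and 11.9% of anti-GFP myeloid cells. Within macrophages Lrp6 was 1.76, 1.89, 1.66 and 1.39 in the uninjured and 1.93, 2.08, 1.499, 1.88, 1.77 and 1.34 in the anti-GFP mice. These macrophage values overlapped (change 0.06, 95% interval -0.37 to 0.49, limma, adjusted p = 0.94).

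Endothelial, T lymphoid and B or plasma cells gave no called member after DSS, where 3.26%, 1.83% and 5.26% of genes were called. Endothelial Fzd4 was 1.72 ± 0.440 (SD, n = 4) and 1.84 ± 0.381 (SD, n = 6), a change of 0.10 (95% interval -0.34 to 0.55, limma, adjusted p = 0.86). Endothelial Lrp5 was 0.373 ± 0.102 and 0.631 ± 0.285 (limma, unadjusted p = 0.036, adjusted p = 0.24). At an unadjusted p under 0.05 there were 1 of 8 endothelial, 2 of 7 T lymphoid and 1 of 2 B or plasma members. Of all genes, 2021 of 11572, 1519 of 11613 and 2010 of 10831 stood under that threshold in these classes (limma). Among T lymphoid cells there was 1 uninjured mouse at 24 h with 20 cells, assumed to vary like the others, and in B or plasma cells, where 1 anti-GFP mouse at 24 h had 20 cells and is likewise assumed to vary like the others, just 2 members passed the filter.

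The response to the Wnt mimetic was read from the treated against the anti-GFP mice at each time, a comparison that shares its anti-GFP mice with the one for DSS. Over 45 comparisons of a class or type at a time, 2 members passed the test: Fzd5 in epithelial cells at 24 h and Fzd7 in progenitors at 48 h. In epithelial cells at 24 h, where 10.1% of genes were called, Fzd5 was 1.44, 1.28 and 1.13 in anti-GFP mice and 0.903, 0.744 and 0.707 in SZN-1326-p mice. The groups did not overlap, and the treated mice lay below the uninjured mice as well (0.922 to 1.02). Fzd5 fell by 0.70 (SE 0.17, limma, adjusted p = 0.017). In libraries rich in long transcripts the values were 1.44 and 1.28 against 0.903, and in the others 1.13 against 0.744 and 0.707. With a term for these libraries the change was -0.64 (limma, adjusted p = 0.0085). The libraries were set apart from the same data and leave 1 or 2 mice per agent on each side. Their part in the Fzd5 fall was thus not tested. By limma the Fzd5 call was lost in 7 of 18 alternatives. These were the fit of only the groups compared (adjusted p = 0.097) and the fit without libraries of high mitochondrial share. Another was AltEnteroPC and BasalGoblet alone, the 2 types every mouse holds, weighted equally (change -0.95, limma, adjusted p = 0.36). The rest were without SZN-1326-p mouse 2 (-0.67, limma, adjusted p = 0.063) or 3 (-0.63, 0.078) and without anti-GFP mouse 1 (-0.62, 0.074) or 2 (-0.70, 0.064).

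Of 5 epithelial types fitted at 24 h, 0 passed the test for Fzd5 alone (limma); AltEnteroPC and TA1 (change -0.73) had an unadjusted p under 0.05. In AltEnteroPC Fzd5 was 2.01 ± 0.248 and 1.01 ± 0.141 (SD, n = 3 each), a difference of -0.99 with an adjusted p of 0.16 (limma, unadjusted p = 0.0004). In progenitors the level was 1.64, 1.502 and 1.26 with anti-GFP and 0.915, 0.868 and 0.751 with SZN-1326-p, without overlap but not called (change -0.78, limma, adjusted p = 0.10). TA1 cells were 93.7%, 95.9% and 4.84% of these anti-GFP progenitors and 92.2%, 6.41% and 6.36% of the SZN-1326-p progenitors. At 48 h epithelial Fzd5 was 0.997, 0.910 and 0.857 with anti-GFP and 0.679, 0.847 and 1.04 with SZN-1326-p, with overlap, a change of -0.13 (95% interval -0.48 to 0.23, limma, adjusted p = 0.67) where 12.5% of genes were called. The difference between the changes at the 2 times was 0.58 (limma, unadjusted p = 0.028, adjusted p = 0.46).

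The other binding partners of SZN-1326-p were not called in epithelial cells. Fzd8 changed by -0.07 at 24 h (95% interval -0.55 to 0.41, limma, adjusted p = 0.88) and by 0.20 at 48 h (-0.28 to 0.68, adjusted p = 0.62). Lrp6 at 24 h was 1.74, 1.44 and 1.18 with anti-GFP and 1.28, 0.976 and 0.820 with SZN-1326-p. These Lrp6 groups overlapped, and the change was -0.50 (95% interval -0.91 to -0.10, limma, adjusted p = 0.10). At 48 h Lrp6 was 1.08 ± 0.0754 and 0.893 ± 0.106 (SD, n = 3 each), without overlap, a change of -0.27 that was not called (limma, adjusted p = 0.38). Lrp5 changed by -0.14 and -0.19 (limma, adjusted p = 0.67 and 0.56).

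Fzd7 in epithelial cells differed in sign between the times: 0.76 at 24 h (limma, adjusted p = 0.085) and -0.68 at 48 h (adjusted p = 0.11). The difference of these changes was -1.44 (limma, unadjusted p = 0.0016, adjusted p = 0.18). In progenitors at 48 h, where 0.335% of genes were called, Fzd7 was 0.238, 0.143 and 0.289 with anti-GFP and 0.0897, 0.0517 and 0.0659 with SZN-1326-p. The groups did not overlap, and Fzd7 fell by 1.54 (SE 0.33, limma, adjusted p = 0.043). Stem cells took 20% to 22.8% of the progenitors of these anti-GFP mice but 27.5% to 38.6% in the treated mice, and the part of this shift was not tested. By limma its call was lost in 9 of 17 alternatives, among them voom (-1.20, adjusted p = 0.30) and leaving out anti-GFP mouse 1 or 3 (adjusted p = 0.14 and 0.13) or any SZN-1326-p mouse (0.052 to 0.25). At 24 h no progenitor member was called, where 0.112% of genes were. At an unadjusted p under 0.05 there was 1 of 9 members, beside 1759 of 10758 genes (limma).

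In the stroma and immune cells SZN-1326-p gave no called member, and few genes of any kind. The called share of all genes was 0% and 0.135% in fibroblasts at 24 h and 48 h, 0% and 0.0171% in mural cells, 0% at both times in endothelial cells, 0% and 0.0182% in myeloid cells and 0% and 0.0258% in T lymphoid cells (limma), and 0.00923% in B or plasma cells at 48 h. In fibroblasts, 0 members at 24 h and 2 at 48 h had an unadjusted p under 0.05, beside 756 and 957 of 11128 genes. Mural cells had 2 and 0 such members, beside 619 and 363 of 11691 genes. Endothelial cells had 2 and 0, beside 731 and 316 of 11572 genes, and myeloid cells 1 and 1, beside 508 and 882 of 10981. T lymphoid cells had 0 at either time, beside 797 and 665 of 11613 genes (limma). Fibroblast Fzd2 at 48 h was 0.500, 0.311 and 0.562 with anti-GFP and 0.869, 0.652 and 0.844 with SZN-1326-p, beside an uninjured range of 0.728 to 0.905. These groups did not overlap, but Fzd2 was not called (change 0.80, limma, unadjusted p = 0.00086, adjusted p = 0.14). Fibroblast Fzd1 at 48 h was 3.08, 3.56 and 3.47 with anti-GFP and 2.58, 2.75 and 2.67 with SZN-1326-p, also without overlap and not called (change -0.34, limma, adjusted p = 0.53). The share of all genes without overlap is not given here, so these 2 separations are not a result about the members. Endothelial Lrp5 at 24 h was 0.723 ± 0.417 and 0.304 ± 0.131 (SD, n = 3 each; change -1.16, limma, adjusted p = 0.78).

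**Figure D4:**
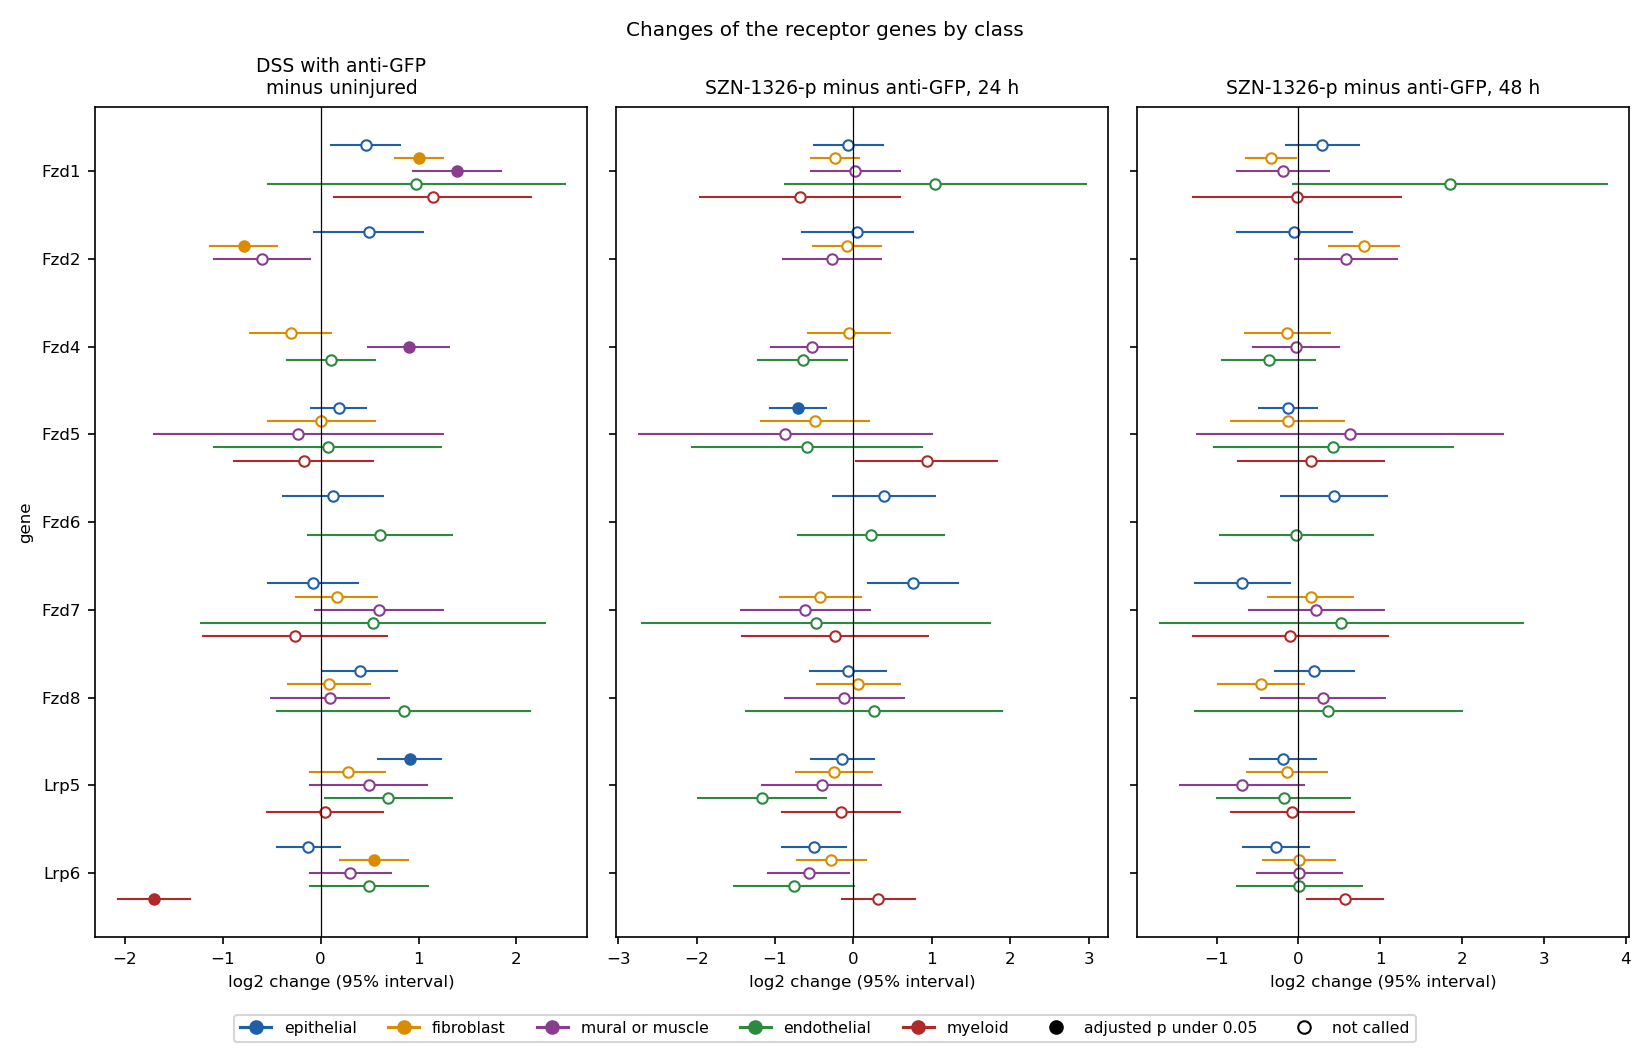
Log2 change of each gene that passed the filter, by class, in epithelial, fibroblast, mural or muscle, endothelial and myeloid cells, for anti-GFP minus uninjured mice and for SZN-1326-p minus anti-GFP mice at either time; points are limma estimates with 95% intervals, and filled points passed the test. Of the filled points 7 stand in the DSS panel and 1, Fzd5 at 24 h, in the others, with Fzd1 up by 1.01 in fibroblasts and 1.39 in mural cells and Lrp6 down by 1.70 in myeloid cells.

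The make-up of the Frizzled pool was described as the share of each gene in the summed level of the 10 Frizzled genes of a class, in UMIs not scaled by length, and compared across arms only. In fibroblasts Fzd1 took 43.4% to 50.0% of the pool in uninjured mice, 65.1% to 75.9% in anti-GFP mice and 59.8% to 72.3% in SZN-1326-p mice. Uninjured and anti-GFP mice did not overlap (exact permutation within time, p = 0.01, the smallest possible; adjusted p = 0.06 over 12 tests). Fzd2 went the other way, from 24.4% ± 2.44 to 10.2% ± 1.94 (SD, exact permutation, p = 0.01, adjusted p = 0.06) and to 15.1% ± 3.85 with SZN-1326-p (p = 0.025, adjusted p = 0.072). In epithelial cells Fzd5 held 66.8% ± 3.63, 65.7% ± 5.16 and 58.9% ± 4.75 in the 3 arms (SD, exact permutation, adjusted p = 0.71 and 0.11). In mural cells Fzd1 went from 20.7% to 36.9% after DSS (exact permutation, p = 0.03, adjusted p = 0.072) and Fzd4 from 18.7% to 24.8% (p = 0.04, adjusted p = 0.08). Endothelial Fzd4 held 75.6%, 73.2% and 62.1% (exact permutation, p = 0.02 for SZN-1326-p, adjusted p = 0.072). No share passed the adjusted test, and for DSS p could not go under 0.01, so passing needed several tests at that limit. Shares of a pool are bound together: a larger Fzd1 share leaves less for Fzd2 even at an unchanged Fzd2 level. After DSS the fibroblast and mural genes tested here were those called above in the same mice, so their shares are no independent result.

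**Figure D5:**
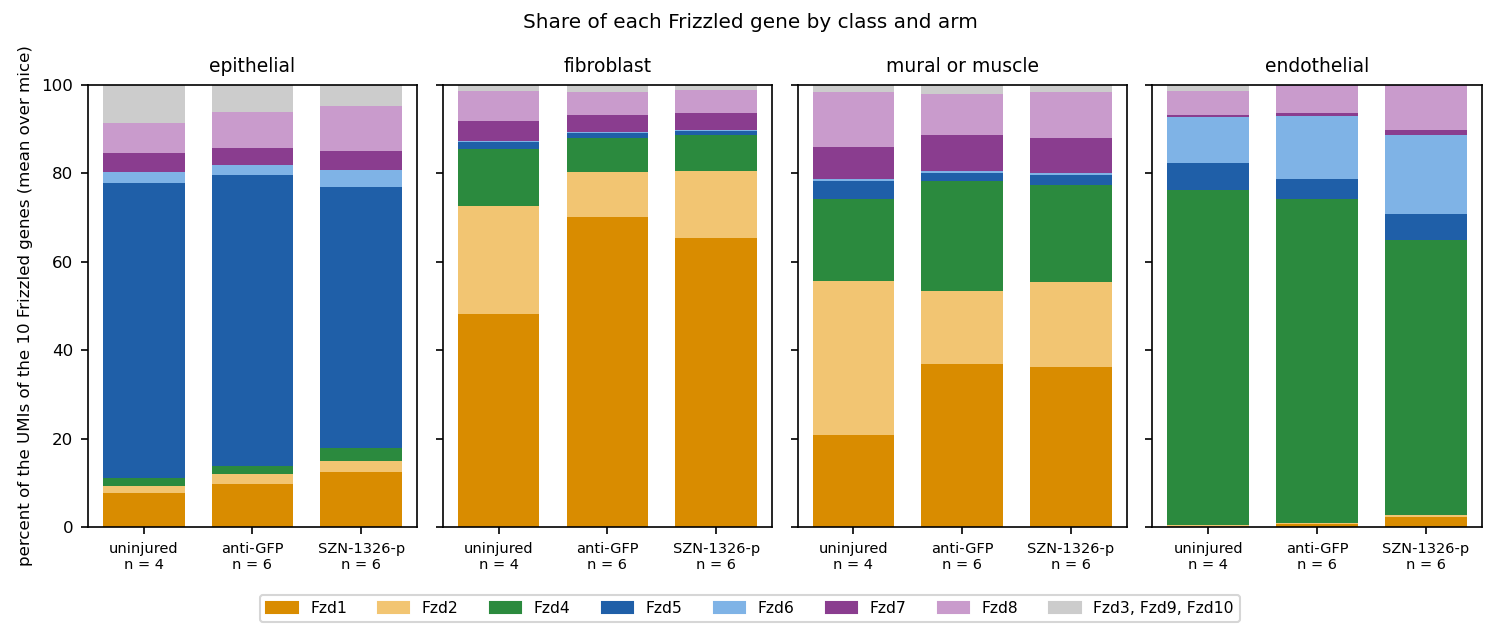
Percent of the summed Frizzled level of a class taken by each Frizzled gene, as means over the mice of each arm in epithelial, fibroblast, mural or muscle and endothelial cells. Fzd5 fills most of the epithelial bars (66.8%, 65.7% and 58.9%), and the Fzd1 part of the fibroblast bar grows from 48.2% to 70.0% between uninjured and anti-GFP mice.

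How many cells carried a receptor transcript was counted after each cell was thinned to 3000 UMIs, which left out 2764 shallower cells (12.2%; among epithelial cells 282 uninjured, 117 anti-GFP and 316 SZN-1326-p). Fzd5 was found in 19.6% ± 4.52 of epithelial cells (SD, n = 16; 53.0% without thinning) against 2.33% of myeloid cells, with medians of 12669 and 9309 UMIs per cell before thinning. By arm the epithelial share was 17.05% in uninjured, 22.7% in anti-GFP and 18.3% in SZN-1326-p mice. Fzd5 or Fzd8 together with Lrp5 or Lrp6 was found in 6.63% ± 2.44 of epithelial cells (SD, n = 16; 45.5% without thinning) and 0.846% of myeloid cells. Fzd1 was found in 50.6% of fibroblasts (73.1% without thinning) and 1.28% of myeloid cells (medians of 9446 and 9309 UMIs), and Fzd4 in 40.3% of endothelial cells (55.7% without thinning) and 0.231% of myeloid cells (5651 and 9309 UMIs). Cells without a UMI at this depth cannot be called negative.

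Of 23 further receptor-level Wnt genes, 17 were tested in epithelial cells, and DSS raised Fzd3 (0.87, limma, adjusted p = 0.018) and lowered Fzd9 (-2.11, adjusted p = 0.00015), with a list median of 0.13 beside 0.00499 for all genes, of which 23.3% were called. At 24 h SZN-1326-p raised Rnf43, which removes Frizzled from the surface (1.13, limma, adjusted p = 0.010), and Mesd, a chaperone of LRP5 and LRP6 (0.63, adjusted p = 0.041), with a list median of -0.04 beside -0.06 for all genes, of which 10.1% were called. At 48 h, where 12.5% of genes were called, it lowered Fzd3 (-1.34, limma, adjusted p = 0.0095). Of 21 relay genes, 19 were tested: Pygo2 (0.93, limma, adjusted p = 0.00028) and Bcl9l (0.52, 0.036) rose and Axin2 fell (-1.92, 0.00065) after DSS. The relay list median was 0.03 beside 0.00499 for all genes, of which 23.3% were called. With SZN-1326-p Axin2 rose at 24 h (1.86, limma, adjusted p = 0.012), and Dvl1 (-0.59, 0.031), Ctnnb1 (-0.56, 0.041) and Tcf7l2 (-0.99, 0.012) fell at 48 h. The relay list medians were -0.26 at 24 h and -0.28 at 48 h. For all genes they were -0.06 and -0.11, with 10.1% and 12.5% called. Of 13 Wnt targets 8 were tested, of which 5 rose at 24 h: Axin2, Rnf43, Cdca7 (1.07, limma, adjusted p = 0.014), Ccnd1 (0.78, 0.040) and Myc (1.45, 0.0065), with a list median of 0.93 beside -0.06 and 10.1% for all genes. The fall of epithelial Fzd5 at 24 h was thus measured in the same 6 mice as the rise of these 5 targets, and at 48 h 0 of the 8 were called (limma). In progenitors alone 0 of 10 tested targets were called with SZN-1326-p at 24 h (limma, list median 0.48), where 0.112% of all genes were. After DSS 1 of the 8 targets rose, Ccnd1 (1.63, limma, adjusted p = 1.4e-05), and 1 fell, Axin2. The target list median was 0.11 there, where 23.3% of all genes were called.

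In fibroblasts 7 of 16 tested receptor-level genes rose after DSS and 0 fell, with a list median of 0.32 beside 0.02 for all genes, of which 22.3% were called. They were the heparan sulfate carrier Sdc1 (3.06, limma, adjusted p = 1.4e-09), Lrp4 (1.497, 2.5e-05), the Dickkopf receptor Kremen1 (1.23, 3.7e-06) and the Wnt5a receptor Ror1 (0.98, 0.00091), with Ror2, Adgra2 and Ptk7. Of 21 relay genes, 4 rose (Pygo2, Ctnnb1, Csnk1a1, Bcl9l) and 1 fell (Tcf7l1), a share near that of all genes. With SZN-1326-p 0 genes of the 3 lists were called in fibroblasts (limma). In progenitors 10 targets were tested after DSS, where 10.9% of all genes were called. Axin2 (-2.35, limma, adjusted p = 0.0045) and Ascl2 (-2.25, 0.028) fell and Ccnd1 rose (1.09, 0.00047). Of 16 receptor-level genes 1 rose, Kremen1 (1.13, limma, adjusted p = 0.0072). Of 20 relay genes 3 rose, Pygo2 (0.97, limma, adjusted p = 0.0089), Dvl1 (0.74, 0.029) and Ctnnb1 (0.67, 0.012), and 1 fell, Axin2. These are the cells where Fzd5 and Lrp5 rose.

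Across the 46 types the members fell into different company, measured as Pearson's correlation of log2 levels over types among 14154 genes, where types share libraries and depth. Fzd1 and Fzd2 were each among the 5 genes most like the other (r = 0.86), beside Rai2 and Loxl1. Fzd5 was most like Tmem125 (r = 0.94), Tmem171, Cnnm4, Mgat4c and Tspan8, Fzd4 like Tns2 (0.88), Fzd6 like Nexmif (0.80) and Fzd7 like Rasl11b (0.85). Fzd8 was most like Tead1 (r = 0.88), Lrp5 like Rin2 (0.78) and Lrp6 like Nsmf (0.79), with Tcf7l2, a relay gene of the pathway, among the 5 nearest to Lrp6. The lowest value among pairs of members was that of Fzd2 and Fzd5 (r = -0.43), and Fzd5 and Fzd8, which SZN-1326-p both binds, had r = -0.01.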

How the data were processed

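Single-cell libraries of 16 mice were analysed, 2 uninjured and 3 per agent at each of 2 times. The labels name each mouse as a replicate and give the 10x v3 chemistry, and Cell Ranger 3.0.2 and mm10 are named in the submitters' processing notes. The authors deposited log2 values, log2(UMIs divided by the size factor of the cell, plus 1), from which whole UMIs were recovered for 100% of 60867816 entries (tolerance 1e-06). The authors also deposited text labels that name 46 cell types, which hold no measured values, and in which the treated arm is called SWAP, taken here as SZN-1326-p. The 9 members and the gene lists were chosen with earlier results of these data known, and the classes, mural or muscle cells and progenitors among them, were formed after the annotation had been read.

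For each class or type the mean normalized UMIs per cell were taken per mouse (20 cells or more), and log2(mean + 0.01) was tested with limma 3.58.1 (R 4.3.3, trended and robust variances) in 1 fit of 6 groups. A change after DSS is the mean over both times of the difference in mean log2 values, and so need not equal the ratio of the printed means: the pseudocount shrinks changes of low genes, and single mice near 0 widen them. Genes needed 0.05 normalized UMIs per cell in 2 mice. Adjusted p-values are Benjamini-Hochberg over all genes of a fit, called under 0.05, and intervals cover 95%. Where groups are said not to overlap, this describes the values of single mice. The share of all genes without overlap is not given here. Permutation tests and thinning used scipy 1.17.1 and numpy 2.4.6 under Python 3.11.15, and the scripts were tested on simulated data. A test for counts was planned if counts had been deposited; with log2 values limma was used, and voom on recovered sums served as an alternative. The alternatives also changed the filter, pseudocount, scaling, minimum cells, mice, cells and fit terms. No doublets were removed beyond the authors' own filter, about which the sources used here give nothing; leaving out cells with 2 or more markers of another lineage was an alternative. Same-numbered mice were not taken as paired, since not every same-numbered pair correlated over 0.1. Of the further Wnt genes, those named are the ones that passed in epithelial cells and up to 4 per list elsewhere.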

Additional observations from a re-analysis of the deposited data

Results flagged for a closer look

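Lrp6 moved in opposite directions in fibroblasts and myeloid cells after DSS. The change in fibroblasts minus that in myeloid cells was 2.25 on the log2 scale. This contrast was chosen because the called changes differed in sign, so the difference has no test independent of that choice, and the fibroblast call was lost in 4 of 21 alternatives. The fibroblast level minus the myeloid level of a mouse was at most -0.32 in the 4 uninjured mice and at least 1.15 in the 6 anti-GFP mice. Macrophages, the myeloid type high in Lrp6, went from 75.1% to 11.9% of myeloid cells, and within macrophages the Lrp6 change was 0.06 (95% interval -0.37 to 0.49, limma, adjusted p = 0.94). No mouse stood alone in the 55 groups of 4 or 6 mice examined for a lone value.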

How the results depend on the processing

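Of 19 called member changes, 8 kept their call under each alternative run: Fzd1 in fibroblasts, mural cells, CryptFB1 and MyoFB, Fzd2 in fibroblasts, Lrp6 in myeloid cells, and Fzd5 and Lrp5 in progenitors after DSS. None of the 372 alternatives reversed a called change and 320 kept the call, while 37 of 3127 alternatives called a change that was otherwise uncalled; the causes were not tested. The share of all genes called under each alternative is not given here. The counts of called members in this section thus cannot be set against it and are not a result about the members. After DSS the number of called members went as follows. In epithelial cells 1 became 0 with equal weights of 2 types, 3 with the library term or the mean of log2 values and 4 with voom, and leaving out 1 mouse gave 1 to 3. In TA2 cells 2 became 1 without the filter or with voom, and 0 with only the groups compared, without marker-bearing cells or without libraries of high mitochondrial share, and leaving out 1 mouse gave 0 to 2. In CryptFB1 1 became 3 with the mean of log2 values and 2 with voom, and leaving out 1 mouse gave 1 to 2. In BaseCryptFB2 leaving out 1 mouse gave 1 to 3 and in MyoFB also 1 to 3. Voom gave 1 in mural cells in place of 2 and 1 in B or plasma cells in place of 0, and in myeloid cells the library term gave 2 in place of 1, with 1 to 2 on leaving out 1 mouse.

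With SZN-1326-p the epithelial count at 24 h of 1 became 0 with equal weights, only the groups compared or without libraries of high mitochondrial share, and 2 with the library term or the mean of log2 values, and leaving out 1 mouse gave 0 to 2. The progenitor count at 24 h of 0 became 1 with the mean of log2 values and 0 to 1 on leaving out 1 mouse. At 48 h the progenitor count of 1 became 0 without the filter, with only the groups compared, with voom or without libraries of high mitochondrial share, and 0 to 1 on leaving out 1 mouse. Where leaving out a mouse left 1 in a group, it was assumed to vary like the others.

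The replicate numbers were not taken as a pairing (14 same-numbered pairs, correlation of deviations -0.30 to 0.53, median 0.12, 8 over 0.1; 28 other pairs, median -0.10, 7 over 0.1). With the number as a replicate block, the called count was 2 in CryptFB1 and 0 in TA2 cells (Fzd5 0.75, limma, adjusted p = 0.098; Lrp5 0.93, adjusted p = 0.12), and epithelial Fzd5 at 24 h changed by -0.70 (limma, adjusted p = 0.019).

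With 50 cells per mouse the Fzd5 difference of epithelial over T lymphoid cells was 1.72 (permutation, adjusted p = 0.14) and the Fzd8 difference of mural cells over fibroblasts 0.34 (adjusted p = 0.035). Thinned to 2000 UMIs or not thinned, cells with a UMI were 13.3% and 53.0% for epithelial Fzd5, 16.8% and 62.5% for Lrp6, 3.31% and 45.5% for the receptor pair, 39.6% and 73.1% for fibroblast Fzd1, 29.6% and 55.7% for endothelial Fzd4 and, not thinned, 27.5% for epithelial Lrp5, so depth sets these shares. SZN-1326-p at 24 h could not be fitted in B or plasma cells, and identity between the proteins was not run.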
